A study of Homo sapiens with 7 samples.

Results

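Genes of the TGF-beta pathway, 9 in number, were followed in 7 RNA-Seq libraries of esophageal squamous cell carcinoma cells: the ligands TGFB1, TGFB2 and TGFB3, the receptors TGFBR1 and TGFBR2, the signal transducer SMAD3, its inhibitor SMAD7, and the matrix genes TGFBI and FN1. These 9 genes of the 56234 listed in the files were chosen by name as members of the pathway, and all 9 had a value in every library. TE5 and KYSE140 are established cell lines. TE5 cells carried a scramble control shRNA or an shRNA against TP63, SOX2 or the long noncoding RNA CCAT1 (4 libraries), and KYSE140 cells carried scramble, TP63 or SOX2 shRNA (3 libraries). Each condition of a line is a single library with a single shRNA per target, and no replicate stands behind any difference between 2 libraries of a line.

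TGF-beta ligands are secreted in a latent form that is bound to the matrix. Once released, a ligand brings the type II receptor together with the type I receptor, which phosphorylates SMAD2 and SMAD3, and these enter the nucleus with SMAD4. In epithelia the pathway is known both for holding back proliferation and, in carcinoma cells, for inducing matrix genes and a mesenchymal programme.

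The estimated counts summed to between 68532611 and 98036494 per library. TP63 checked the labels: its normalized count was 26626.9 in TE5 scramble and 6761.7 in TE5 shTP63, and 47836.6 in KYSE140 scramble and 12492.9 in KYSE140 shTP63. SOX2 was 11915.6 in TE5 scramble and 4715.3 in TE5 shSOX2, whereas the pair in KYSE140 was closer, 28578.6 and 22120.9. CCAT1 itself was not analysed here, so the shCCAT1 label was not checked. Of 6 squamous markers, 5 exceeded 1 TPM in TE5 and 6 in KYSE140; KRT14 was between 0.202 and 0.546 TPM in TE5. Fibroblast markers summed to at most 2.56 TPM and leukocyte markers to at most 1.16 TPM, and the endothelial gene CDH5 reached 8.36 TPM in TE5 shTP63, against 1.7 TPM in TE5 scramble. The scramble library of each line was sequenced in another lane than its knockdown libraries, and in TE5 on another flow cell, so knockdown and lane cannot be told apart in any comparison with scramble.

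The promoter windows of FN1 and TGFBR2 are shown because FN1 was the 1 member past a doubling in a knockdown and TGFBR2 had the lowest p in the test of SOX2 silencing. They are RefSeq sequence of GRCh38.p14 and run from 250 bases before to 50 after a start site, 5′ to 3′ on the strand of the gene. Both were picked after the values and the motif matches had been seen. Capitals mark a cyclic AMP response element (TGACGTCA) in FN1, chr2:215436019-215436318, minus strand, and an AP-1 element (TGANTCA) in TGFBR2, chr3:30606351-30606650, plus strand.
FN1: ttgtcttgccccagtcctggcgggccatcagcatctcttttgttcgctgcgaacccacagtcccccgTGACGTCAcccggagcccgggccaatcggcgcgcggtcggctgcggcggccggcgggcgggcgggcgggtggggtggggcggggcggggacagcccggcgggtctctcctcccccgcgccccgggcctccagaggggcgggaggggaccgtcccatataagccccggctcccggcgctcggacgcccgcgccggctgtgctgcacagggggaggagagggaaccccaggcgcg
TGFBR2: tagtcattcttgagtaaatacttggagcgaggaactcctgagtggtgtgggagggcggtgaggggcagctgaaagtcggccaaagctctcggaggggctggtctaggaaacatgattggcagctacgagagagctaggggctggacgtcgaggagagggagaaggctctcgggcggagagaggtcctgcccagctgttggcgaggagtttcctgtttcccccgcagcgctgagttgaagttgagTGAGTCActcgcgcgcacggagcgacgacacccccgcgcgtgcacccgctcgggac
For comparison, 5 motifs were searched on both strands in the 24 windows of the 9 members and in all 35116 windows. The cyclic AMP response element lay in 1.85% of all windows and, among the members, in FN1 alone, from base 68. The AP-1 element lay in 7.71% of all windows and in 1 window each of TGFBR2 (from base 245) and SMAD3 (from base 195). A SMAD-binding element (CAGACA) lay in 16.9% of all windows and in those of TGFB2, SMAD3 and, in 2 windows, TGFBR1. The SMAD-binding palindrome (GTCTAGAC, 0.202% of windows) and a SOX core (CATTGT, 10.8%) matched no window of a member. In all, 7 of the 24 windows held a match, which describes their letters only.

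TPM, an abundance scaled for transcript length, orders the 9 genes in TE5 scramble as TGFBI (237), SMAD3 (68.6), TGFBR2 (32.7), TGFBR1 (32.5), TGFB1 (31.6), TGFB2 (9.55), SMAD7 (6.76), FN1 (4.39) and TGFB3 (3.55). In KYSE140 scramble the order was TGFBI (231), TGFB1 (85.8), TGFBR1 (51.5), SMAD3 (40.4), SMAD7 (19.6), TGFBR2 (9.30), TGFB3 (4.27), TGFB2 (2.52) and FN1 (0.841). TGFBI was the most abundant member in every library. TGFBR2, TGFBR1 and TGFB1 were close together in TE5 scramble, and with 1 library no order can be given among them. Nor can TGFB3 and TGFB2 be ordered in KYSE140 scramble, where a 210-base transcript with 4.0 counts held 34.6% of the TGFB3 TPM. The transcripts with most counts stood the other way, TGFB2-202 at 1.654 TPM and TGFB3-201 at 1.055.

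**Figure D1:**
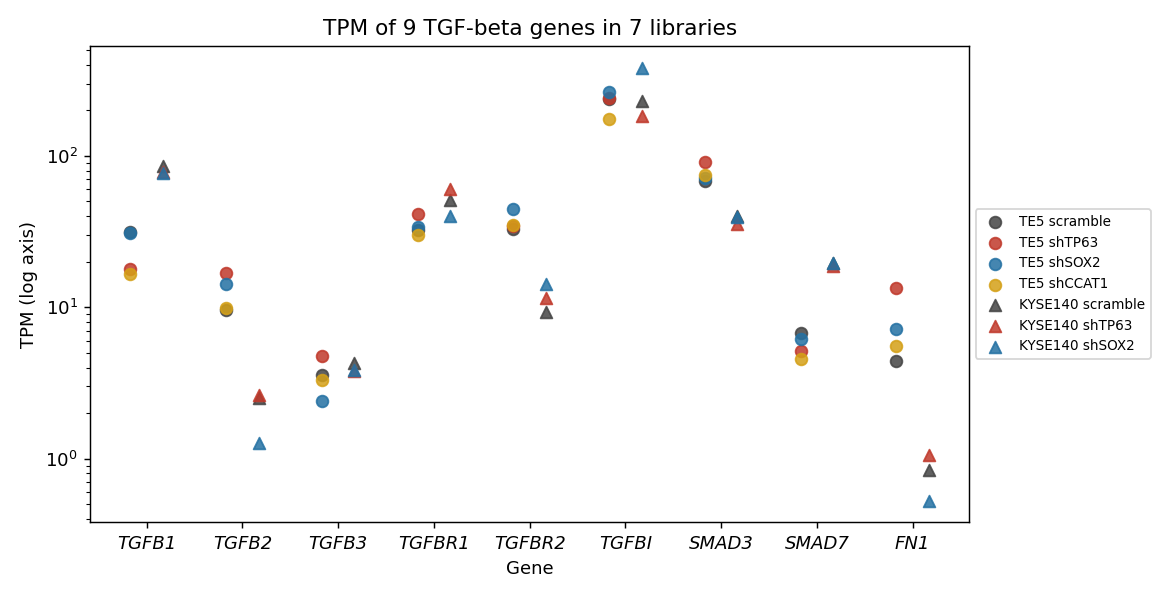
TPM (log axis) of the 9 genes, 1 point per library; circles are TE5, triangles KYSE140, and colours the shRNA. FN1, TGFB2, TGFBR2 and SMAD3 lie higher in all TE5 libraries than in any KYSE140 library, and TGFB1 and SMAD7 lower.

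Most members differed more between the lines than between conditions. In edgeR's quasi-likelihood fit of the 6 scramble, TP63 and SOX2 libraries, with line and condition as terms, 7 of 9 members had an adjusted p under 0.1 between TE5 and KYSE140, 4 higher in TE5 (34.3% of all genes) and 3 lower (31.8%). Of all 23438 genes tested, 66.1% were called, so the members' share is near that of all genes. This comparison was added after the values had been seen. The 3 libraries of a line are the same cell line under 3 shRNAs and are not independent replicates of it. No TE5 library shared a lane with a KYSE140 library, so line and lane cannot be told apart here.
FN1, the gene of the matrix glycoprotein fibronectin, was 4.74 higher in TE5 on the log2 scale (SE 0.28, adjusted p = 1.3e-05). Its KYSE140 counts were few and, in scramble and shTP63, came largely from transcripts that retain an intron. TGFB2 was 2.21 higher (SE 0.28) and TGFBR2 1.42 higher (SE 0.12), with adjusted p of 0.000445 and 6.6e-05. SMAD3 was 0.44 higher (SE 0.13, adjusted p = 0.0234), a call that was lost without KYSE140 shTP63 (0.29, adjusted p = 0.104). The ligand that stood higher in KYSE140 was TGFB1, at -1.82 (SE 0.17, adjusted p = 0.000109), beside the inhibitor SMAD7 at -1.98 (SE 0.15, adjusted p = 3.6e-05) and TGFBR1 at -0.69 (SE 0.13, adjusted p = 0.0031). TGFB3 (-0.26) and TGFBI (-0.29) did not pass. TGFBI was at -0.49 without KYSE140 shTP63 and at -0.48 without TE5 shTP63.

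Upon TP63 silencing in TE5, 1 of 9 members passed -1 or 1 on the log2 scale, against 20.5% of 24405 genes. The median of the members was 0.12 and that of all genes 0.07. In TE5 shSOX2 and TE5 shCCAT1 0 members passed (11.3% and 17.9% of all genes), and in KYSE140 shTP63 and KYSE140 shSOX2 0 members (13.3% in each). In such bulk RNA, fewer cells that express a gene and less RNA per cell cannot be told apart. These pairs have no test, and the 95% intervals given below are exact binomial intervals that cover counting error only. The pairs of a line share their scramble library.

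**Figure D2:**
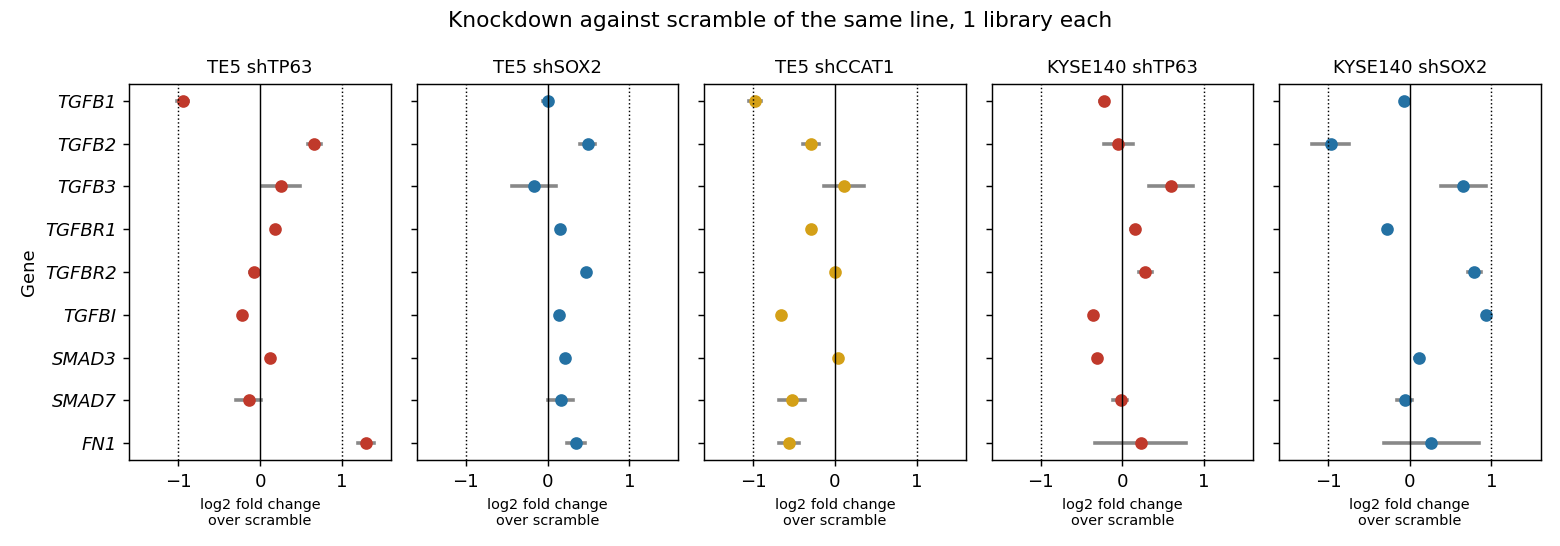
log2 fold change of each gene in 5 knockdown libraries over the scramble of the same line (points), with 95% counting intervals (grey bars) and dotted lines at -1 and 1. FN1 in TE5 shTP63 is the 1 point past a dotted line.

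TGFB1 (ENSG00000105329, hg19 chr19:41807492-41859827) is the ligand most widely expressed in epithelia. Its normalized count was 4323.6 in TE5 scramble, 2239.1 in shTP63, 4331.9 in shSOX2 and 2191.6 in shCCAT1. The TP63 and CCAT1 libraries were thus the low pair and the SOX2 library stood at the level of scramble. In KYSE140 it was 13161.7 in scramble, 11220.5 in shTP63 and 12520.4 in shSOX2. The log2 fold change was -0.95 (-1.02 to -0.88) for TP63 and -0.98 (-1.05 to -0.91) for CCAT1 in TE5, but -0.23 (-0.27 to -0.19) for TP63 in KYSE140. Within the knockdown lane of TE5, shTP63 was -0.95 and shCCAT1 -0.98 against shSOX2, as large as against scramble. Of its 31-base words 5.41% are shared, mostly with the antisense neighbour HNRNPUL1.

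TGFB2 (ENSG00000092969, hg19 chr1:218518678-218617961) had counts of 1747.3 in TE5 scramble, 2770.8 in shTP63, 2453.3 in shSOX2 and 1426.2 in shCCAT1. Both transcription factor knockdowns were above scramble and shCCAT1 below it. In KYSE140 it stood at 623.0 in scramble, 601.9 in shTP63 and 318.8 in shSOX2, where the SOX2 library alone was low. The change upon SOX2 silencing was 0.49 (0.40 to 0.58) in TE5 and -0.96 (-1.19 to -0.74) in KYSE140, opposite in sign. For shCCAT1 it was -0.29 from counts and 0.04 from TPM, and for KYSE140 shTP63 -0.05 and 0.05. A share of 33.34% of its words occurs in other annotated transcripts, mostly TGFB2-OT1, which overlaps it on the same strand and has no value here. The antisense gene TGFB2-AS1, which does have a value, overlaps TGFB2 by 701 bases and had 79.0 estimated counts in TE5 scramble and 143.0 in shTP63. The counts of TGFB2 were whole numbers in every library (largest distance 0.00), so no read was seen to be divided between it and another gene with a value. Whole numbers cannot show whether shared reads were given to 1 gene in full. Since TGFB2-OT1 has no value, they also cannot show whether reads of TGFB2-OT1 were counted as TGFB2.

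TGFB3 (ENSG00000119699, hg19 chr14:76424440-76449354) was the least expressed ligand in TE5. Its counts there were 252.4 in scramble, 300.4 in shTP63, 224.5 in shSOX2 and 271.8 in shCCAT1. In KYSE140 they were 231.3 in scramble, 349.4 in shTP63 and 364.0 in shSOX2, both knockdowns above scramble by 0.59 (0.33 to 0.86) and 0.65 (0.38 to 0.93). The TPM went the other way in these libraries, from 4.27 in scramble to 3.82 and 3.87 (-0.16 and -0.14 on the log2 scale). The direction of the gene sum in KYSE140 therefore depends on the unit, and in TE5 shCCAT1 it did too (0.11 and -0.09). The transcript with most counts, TGFB3-201, was above scramble in KYSE140 in both units. Its estimated counts were 117.4 in scramble, 293.7 in shTP63 and 232.2 in shSOX2, and its TPM 1.055, 1.806 and 1.656. In scramble, a 210-base transcript with 4.0 counts held 34.6% of the TPM of TGFB3.

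TGFBR1 (ENSG00000106799, hg19 chr9:101866320-101916474), the type I receptor kinase, had 8080.9 counts in TE5 scramble, 9160.7 in shTP63, 8970.7 in shSOX2 and 6623.9 in shCCAT1. In KYSE140 it had 14523.3 in scramble, 16076.9 in shTP63 and 12000.0 in shSOX2. Its highest library was shTP63 in both lines, with log2 fold changes of 0.18 (0.14 to 0.22) and 0.15 (0.11 to 0.18). The lowest was shCCAT1 in TE5, at -0.29, and shSOX2 in KYSE140, at -0.28.

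TGFBR2 (ENSG00000163513, hg19 chr3:30648093-30735634), the type II receptor that binds ligand first, was highest in the SOX2 knockdown of each line. Its counts were 8316.7 in TE5 scramble, 7887.8 in shTP63, 11511.5 in shSOX2 and 8302.9 in shCCAT1. In KYSE140 they were 2662.2 in scramble, 3221.8 in shTP63 and 4592.4 in shSOX2. The SOX2 libraries exceeded scramble by 0.47 (0.43 to 0.51) in TE5 and 0.79 (0.71 to 0.87) in KYSE140. Within the knockdown lane, shTP63 was lower than shSOX2 by similar amounts, -0.55 in TE5 and -0.51 in KYSE140. Against scramble in TE5, shTP63 was -0.08 with TMM scaling but 0.06 with total counts and 0.08 from TPM.

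SMAD3 (ENSG00000166949, hg19 chr15:67356101-67487511), the transducer, had the narrowest range in TE5, with 13196.1 counts in scramble, 14344.4 in shTP63, 15287.2 in shSOX2 and 13539.4 in shCCAT1. In KYSE140 it was 11020.3 in scramble, 8885.1 in shTP63 and 11918.1 in shSOX2. TP63 silencing gave 0.12 (0.09 to 0.15) in TE5 and -0.31 (-0.35 to -0.27) in KYSE140. For KYSE140 shSOX2 it was 0.11 from counts and -0.03 from TPM.
SMAD7 (ENSG00000101665, hg19 chr18:46446223-46477335), a feedback inhibitor that blocks the type I receptor, had 672.1 counts in TE5 scramble, 610.8 in shTP63, 748.8 in shSOX2 and 465.9 in shCCAT1. In KYSE140 the libraries were close together, at 2711.2, 2666.5 and 2602.7 in scramble, shTP63 and shSOX2. The shCCAT1 value was -0.53 (-0.69 to -0.37). In TE5 shSOX2 it was 0.16 from counts and -0.12 from TPM, and in KYSE140 shTP63 -0.02 with TMM and 0.04 with total counts.

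TGFBI (ENSG00000120708, hg19 chr5:135364677-135399507) encodes a secreted matrix protein first found as a TGF-beta-induced transcript. Its counts were 34153.0 in TE5 scramble, 29389.7 in shTP63, 37537.7 in shSOX2 and 21589.5 in shCCAT1. In KYSE140 they were 35982.8 in scramble, 28067.6 in shTP63 and 68677.8 in shSOX2, the highest value of any member. The log2 fold change of the latter was 0.93 (0.91 to 0.95), against 0.14 (0.11 to 0.16) in TE5. TP63 silencing gave -0.22 in TE5, which was 0.03 from TPM, and -0.36 in KYSE140. Between the knockdowns of a lane, shTP63 was below shSOX2 by -0.35 in TE5 and -1.29 in KYSE140. No 31-base word of TGFBI is shared with another gene.

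FN1 (ENSG00000115414, hg19 chr2:216225163-216300796) had 1233.9 counts in TE5 scramble, 3019.0 in shTP63, 1570.2 in shSOX2 and 835.7 in shCCAT1. The TP63 library stood apart from the other TE5 libraries, at 1.29 over scramble (1.20 to 1.39) and 0.94 over shSOX2 in the same lane. For shCCAT1 it was -0.56 from counts and 0.33 from TPM, so the gene sum gives no direction. Short retained-intron transcripts weigh more in TPM than in counts. FN1-218 (20.3 counts) and FN1-214 (26.9 counts) held 13.8% and 11.4% of the FN1 TPM in shCCAT1. In TE5 scramble they held 0.0% and 2.8%. In KYSE140 it had 60.9, 71.6 and 73.3 counts in scramble, shTP63 and shSOX2. The intervals of both KYSE140 pairs included 0 (-0.33 to 0.78 and -0.32 to 0.85), and for shSOX2 the TPM gave -0.58, so a difference was not detectable at this depth.
FN1 transcripts can carry 2 extra type III repeat exons, EDA (hg19 chr2:216245534-216245803) and EDB (hg19 chr2:216257654-216257926), a split examined after the gene's values had been seen. Transcripts with EDA took 38.8% of FN1 counts in TE5 scramble, 35.8% in shTP63, 29.4% in shSOX2 and 55.6% in shCCAT1. Transcripts with EDB took 7.1%, 5.1%, 10.7% and 4.1%. In KYSE140, with few FN1 counts, EDA took 0.0% in scramble and shTP63 and 56.1% in shSOX2, and EDB 0.0% in each. These shares come from the pseudoaligner's division of reads among 27 transcripts and have no replicate.

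The knockdown libraries of a line shared a lane and could be set against each other, a comparison added after the values had been seen. Between TE5 shTP63 and TE5 shSOX2, 0 of 9 members passed -1 or 1 (20.6% of all genes), with TGFB1 (-0.95) and FN1 (0.94) closest to it. Between TE5 shCCAT1 and TE5 shSOX2, 0 passed (20.3% of all genes). Below 0 were 8 of 9 members, beside 11496 of 24325 genes, with a median of -0.68 against 0.04 for all genes. TGFB3, at 0.27, was the exception. By TPM, SMAD3 was also higher in shCCAT1, at 74.91 against 71.7 in shSOX2. Between TE5 shTP63 and TE5 shCCAT1, 1 passed (24.5% of all genes): FN1, at 1.85 (1.75 to 1.95). In KYSE140, TGFBI alone passed between shTP63 and shSOX2, at -1.29 (-1.31 to -1.27), 1 of 9 against 17.1% of all genes. TGFB2 was at 0.91 (0.71 to 1.13) in that pair and at 0.18 (0.10 to 0.25) in the same pair of TE5.

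Over both lines, TP63 silencing gave 0 members with an adjusted p under 0.1 in edgeR's quasi-likelihood test, which treats the lines as replicates; 0.939% of 23438 genes were called. At an unadjusted p under 0.05 there were 2 members (14.4% of all genes), and DESeq2 also called 0 (11.2% of the 15553 genes it gave an adjusted p). These were FN1 at 0.88 (SE 0.31, adjusted p = 0.262) and TGFB1 at -0.57 (SE 0.20, adjusted p = 0.279). Without KYSE140 shTP63, TGFB1 was -0.98 and FN1 1.27, values that rest on TE5. Without KYSE140 shSOX2, FN1 was 0.86. A fit with a library left out keeps 1 library in that condition, so only the effect size is given.

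SOX2 silencing likewise gave 0 called members, against 0.145% of genes. At an unadjusted p under 0.05 there was 1 member (8.94% of all genes). It was TGFBR2, at 0.60 (SE 0.15, adjusted p = 0.302), which was higher in both lines. DESeq2 called this 1 member (0.60, adjusted p = 0.0506), beside 4.01% of its 15553 genes. In edgeR, TGFBR2 was 0.60 without TE5 shTP63 and 0.62 without KYSE140 shTP63. TGFBI stood at 0.54 (SE 0.23, adjusted p = 0.561).

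Between shTP63 and shSOX2, a comparison within a lane, 0 members were called by edgeR (4.22% of genes), 3 had an unadjusted p under 0.05 (17.5% of all genes) and DESeq2 called 2, beside 16% of its 15553 genes. TGFBI was -0.81 (SE 0.23, adjusted p = 0.142), TGFBR2 -0.50 (SE 0.14, adjusted p = 0.145) and TGFB1 -0.51 (SE 0.20, adjusted p = 0.259). DESeq2 gave TGFBI an adjusted p of 0.0177 and TGFBR2 one of 0.0379. Left-out libraries moved several of these edgeR values. Without KYSE140 shTP63, TGFB1 was -0.94, TGFBR2 -0.63 and FN1 0.95. Without TE5 shTP63 and without TE5 shSOX2, TGFBI was -1.10 and -1.23.

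**Figure D3:**
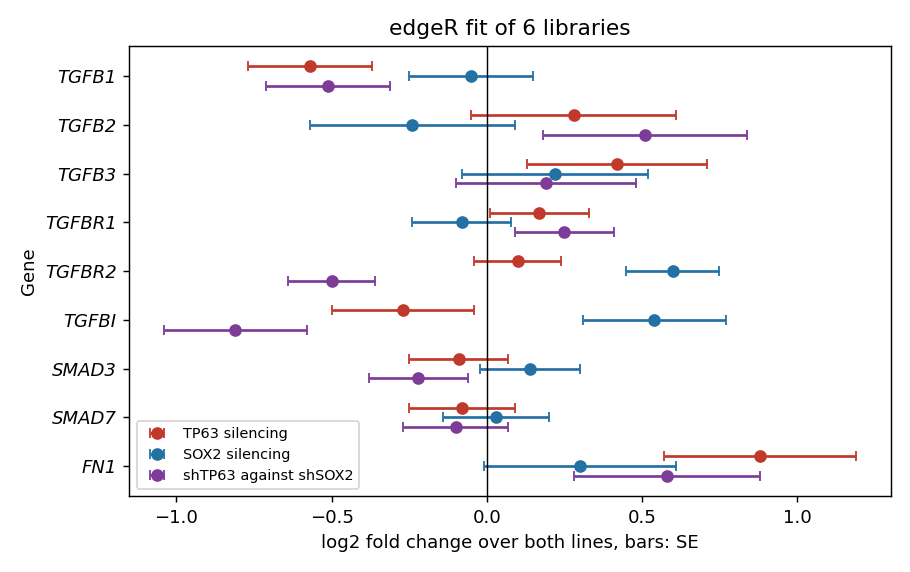
log2 fold change over both lines with its SE (bars) for the 9 genes, from 1 edgeR fit of 6 libraries; colours are the 3 comparisons. TGFBR2 and TGFBI lie above 0 upon SOX2 silencing, at 0.60 and 0.54, and below 0 in shTP63 against shSOX2.

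A wider list of 71 pathway genes was then examined. In TE5 shTP63, 12 of 69 measured genes passed 1 and 1 passed -1 (14.8% and 5.61% of all genes), with a median of 0.33 against 0.07 for all genes. The counts were 9 and 1 of 67 in TE5 shSOX2 (6.31% and 4.95% of all genes) and 2 and 5 of 68 in TE5 shCCAT1 (11.9% and 6.05%). In KYSE140 they were 3 and 3 of 65 for TP63 (9.01% and 4.27%) and 6 and 5 of 66 for SOX2 (7.08% and 6.17%). The median of the list was 0.18 in TE5 shSOX2 and -0.19 in TE5 shCCAT1, and in KYSE140 it was -0.06 for TP63 and 0.08 for SOX2.
By the test over both lines, 1 of 68 genes fell upon TP63 silencing (0.742% of all genes) and 0 rose (0.196%): SNAI2, a repressor of epithelial genes, by 0.74 on the log2 scale (SE 0.13), at an adjusted p of 0.0997, just under the threshold. That call was lost when transcripts without a gene were kept in the fit, which left 0 genes called of all tested. Upon SOX2 silencing 0 of 68 were called by edgeR (0.145% of all genes). At an unadjusted p under 0.05 there were 18 of 68 upon TP63 silencing (14.4% of all genes), 18 upon SOX2 silencing (8.94%) and 29 between shTP63 and shSOX2 (17.5%). Between shTP63 and shSOX2, 2 genes were higher (1.8% of all genes), the decoy receptor BAMBI (1.18) and the integrin ITGB8 (0.74), which takes part in the release of latent ligand. Lower were 6 genes (2.41% of all genes): the co-receptor TGFBR3 (-1.24), the repressor SKI (-0.73), the ubiquitin ligase SMURF2 (-0.73), SNAI2 (-0.88), MMP2 (-1.41) and TIMP3 (-1.69). These 8 were named because they passed the test, and 0 of the 8 passed when transcripts without a gene were kept in the fit (adjusted p from 0.15 to 0.25).

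CCN2, a secreted matrix factor, was highest in shTP63 in both lines, at 0.79 and 2.25, and its counts in KYSE140 were 69.4 in scramble and 334.9 in shTP63. PMEPA1, a membrane inhibitor of SMAD signalling, was lower in the SOX2 libraries, at -0.56 in TE5 and -1.68 in KYSE140. TGFBR3 was higher in them, at 1.40 and 1.12, as was ITGAV, the integrin chain that partners in ligand release, at 0.94 and 0.66, though ITGAV was also above scramble in the TP63 libraries, at 0.47 and 0.58. LOX, which crosslinks collagen, was 1.39 in TE5 shSOX2 and -1.21 in TE5 shCCAT1. ID1 was at 1.58 and 1.02 in KYSE140 shTP63 and shSOX2, and at 0.06 and 0.05 in TE5.

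**Figure D4:**
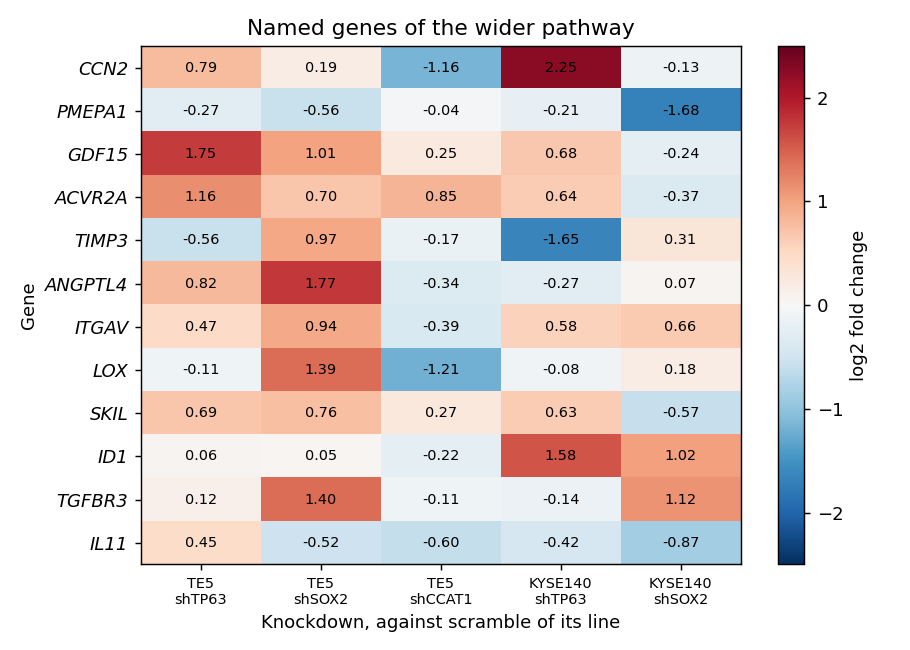
log2 fold change over scramble (colour and printed value) of 12 named pathway genes in 5 knockdown libraries. CCN2 is at 2.25 in KYSE140 shTP63, and PMEPA1 at -1.68 and TGFBR3 at 1.12 in KYSE140 shSOX2.

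The genes most like TGFB2 over the 7 libraries, in log2 normalized abundance centred on the mean of each line, were HMGCS1 (Pearson's r = 0.976), DNAJC3 (0.973) and NR1D1 (0.970), of 12148 genes compared. For TGFBI they were CC2D2A (0.997), BCL3 (0.995) and RIPK4 (0.992). These values describe 7 libraries that share the lines' scramble libraries and lanes. As the highest of 12148 genes over so few libraries, they can be high by chance, which was not tested. FN1 was not compared, since it had under 100 counts in a library.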

How the data were processed

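Paired reads of 100 bases were pseudoaligned by the authors with kallisto (Ensembl 82 transcripts, hg19). The authors deposited, per transcript, estimated counts and TPM. The deposited TPM values are scaled for length and library size by the authors; the estimated counts are not scaled. Transcripts were summed to genes here with GENCODE 44 mapped to hg19; 13491 of 196354 transcripts (6.31% to 6.55% of counts) had no gene and were left out of library sizes and tests. Counts were scaled by TMM in edgeR 4.0.16 (R 4.3.3), and log2((shRNA + 1)/(scramble + 1)) was taken wherever either library of the pair held 10 counts or more.

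The quasi-likelihood fit used rounded gene counts of 6 libraries, line as a block, filterByExpr, 2 residual degrees of freedom and Benjamini-Hochberg adjusted p under 0.1. A first run kept the unassigned transcripts as single features and called 0, 1 and 1 features (TP63, SOX2, shTP63 against shSOX2). After these counts had been seen, the fit was repeated on genes only, as its written design of gene sums requires, and that fit (220, 34 and 988 genes) is the one reported. The comparison of the lines, the pairs within a lane, the FN1 exon shares, and the choice of motifs and of the printed promoters were also made after values were seen. The members and the 71-gene list were chosen with earlier results of these data known.

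The TP63 comparison was tested on simulated data of 22566 genes, 200 of them shifted by 2 (log2), at a dispersion of 0.02: the fit recovered 100%, with 7.4% false calls, and made 0 calls where nothing was shifted. The real dispersion was 0.0457, and the largest change of a member over both lines upon silencing was 0.88 (FN1, TP63 silencing). The simulated shift was equal in both lines. Recovery of changes as small as the members' was not tested. Named pathway genes are CCN2 and PMEPA1, and up to 10 more with the largest mean absolute change among those with at least 100 normalized counts in the higher library of every pair and one sign in both lines upon TP63 or SOX2 silencing; another gene that the rule names is not reported here. Samples of a group were single libraries, and the line term takes out the mean difference between lines. The p-values therefore measure against how far differences between conditions vary from line to line, pooled over the conditions. In edgeR this spread is also drawn toward a trend over all genes. A p-value so rests on more than a gene's own 2 residual degrees of freedom. The test between the lines uses the same spread. DESeq2 1.42.0, other scalings, filters, pseudocounts and left-out libraries were alternatives. Tables and figures were made in Python 3.11.15 (scipy 1.17.1, pandas 2.3.3, numpy 2.4.6, matplotlib 3.10.9).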

Additional observations from a re-analysis of the deposited data

Results flagged for a closer look

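The results below have counting intervals on opposite sides of 0 in the 2 lines under the same shRNA. The difference between the lines was not tested, since each line has 1 library per condition. Upon TP63 silencing, the log2 fold change in TE5 minus that in KYSE140 was -0.36 for TGFBR2 (-0.08 and 0.28), 0.43 for SMAD3 (0.12 and -0.31), 1.09 for ANGPTL4 (0.82 and -0.27) and 0.87 for IL11 (0.45 and -0.42). Upon SOX2 silencing it was 1.45 for TGFB2 (0.49 and -0.96), 0.43 for TGFBR1 (0.15 and -0.28), 1.25 for GDF15 (1.01 and -0.24), 1.07 for ACVR2A (0.70 and -0.37) and 1.33 for SKIL (0.76 and -0.57). The value of TGFBR2 in TE5 changes sign with total counts (0.06), and SOX2 itself was at -1.34 in TE5 shSOX2 and -0.37 in KYSE140 shSOX2, whose part in these differences was not tested.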

How the results depend on the processing

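The 95 results gave 660 alternative values, and 528 kept their direction and side of the threshold or stayed within counting error or 1.5 times. The number of genes called depended strongly on the fit. For TP63 silencing (220), SOX2 silencing (34) and shTP63 against shSOX2 (988), it was 1737, 624 and 2491 with DESeq2, 1211, 390 and 2050 without a filter on low counts, and 0, 1 and 1 with unassigned transcripts kept as single features, an alternative that had been run first. Leaving out 1 library gave 0 to 2129, 0 to 918 and 127 to 2402. Without TE5 scramble the counts were 0, 0 and 148, and without KYSE140 scramble 0, 0 and 127; the cause was not tested. A left-out library leaves 1 residual degree of freedom, and the lone library of its condition is assumed to vary like the others. The count between the lines (15484) was 12976 to 14743.

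With a threshold of 0.58 in place of 1, the members past it numbered 3, 0, 2, 1 and 4 (TE5 shTP63, shSOX2, shCCAT1, KYSE140 shTP63, shSOX2), beside 39.7%, 25.3%, 32.3%, 26.8% and 27.6% of all genes. At the threshold of 1, with DESeq2 size factors 1 passed in TE5 shCCAT1, and with total counts 1 in KYSE140 shSOX2. Of the wider list, 7 in place of 11 passed in KYSE140 shSOX2 with at least 50 counts. The share of all genes was not counted under these 3 alternatives, so these changes cannot be called particular to the listed genes. With the main scaling and filter it was 17.9% in TE5 shCCAT1 and 13.3% in KYSE140 shSOX2. Total counts shifted the median of all genes by 0.14 in TE5 shTP63, 0.17 in TE5 shCCAT1 and -0.10 in KYSE140 shSOX2.

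Values over both lines that changed sign when 1 library was left out had these ranges. For TP63 silencing they were -0.26 to 0.86 for TGFB2, -0.06 to 0.24 for TGFBR2, -0.31 to 0.09 for SMAD3 and -0.20 to 0.01 for SMAD7. For SOX2 silencing they were -0.30 to 0.18 for TGFB1, -0.83 to 0.31 for TGFB2, -0.08 to 0.53 for TGFB3, -0.30 to 0.15 for TGFBR1, -0.02 to 0.29 for SMAD3, -0.12 to 0.19 for SMAD7 and -0.06 to 0.56 for FN1. For shTP63 against shSOX2 they were -0.12 to 0.50 for TGFB3, -0.27 to 0.03 for SMAD7 and -0.06 to 0.95 for FN1. Beyond the block by cell line that the fits hold, no pairing was possible, because each condition of a line is a single library.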
